A study of Rattus norvegicus with 4 samples.

Results

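DNA replication and mitosis genes were followed in olfactory ensheathing cell cultures sorted into populations with high and low surface p75. All 16 microglia and macrophage markers tested had a lower mean in the population with high p75. Whether the populations hold the same cell types was not tested. The set was listed by function and held 45 genes, of which 19 act in S phase (origin licensing, the replicative helicase, DNA synthesis, nucleotide supply and entry into S phase) and 26 act in mitosis. A gene counted as present when the array's own gene name, without the ending for a predicted or mapped gene, was on the list, with an older name of Cdk1 also accepted. By that rule 40 of the 45 genes were on the array, 17 of them S-phase and 23 mitotic, with 59 probes. Of these 40 genes, 27 (11 S-phase and 16 mitotic) had a probe bright enough to be tested, out of 22191 genes tested in all.

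Olfactory ensheathing cells are glia of the olfactory nerve and bulb that enfold growing axons, and p75 is the low-affinity neurotrophin receptor encoded by Ngfr. Cells of male Fischer rats were grown in culture and sorted by flow cytometry on p75 into a p75High and a p75Low population, at a stated purity of 98%. The sources used here do not give the age of the animals. Per the labels there were 4 biological replicates of paired samples, and their RNA was amplified by PCR from cDNA with the SuperAmp method. On each of 4 arrays the p75High sample carried Cy5 and the p75Low sample carried Cy3. No array had the dyes exchanged, so an effect of the dye and an effect of the population cannot be told apart for any single gene. Nothing in the labels ties each replicate to its own animal or culture, so the p-values reflect only the scatter among these samples, part of which may be technical.

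A dividing cell copies its DNA in S phase and separates the copies in mitosis. Before S phase, licensing factors load the MCM helicase onto replication origins, and cyclin E with Cdk2 and the transcription factor E2F1 drive the step into S phase, when ribonucleotide reductase and thymidine kinase supply nucleotides. Later, cyclin B with Cdk1 and the Plk and Aurora kinases drive mitosis, kinesin motors build the spindle, and the spindle checkpoint holds back the anaphase-promoting complex until every chromosome is attached. In bulk samples, fewer dividing cells and less of these RNAs per cell cannot be told apart.

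Values below are log2 ratios of p75High over p75Low, given as mean ± SD over 4 arrays, with the moderated standard error (SE) and the adjusted p from limma, adjusted over all 22191 genes with a threshold of 0.05. The sort was visible in the data: Ngfr read 6.07, 6.17, 5.02 and 5.96 on replicates 1 to 4, a mean of 5.80 ± 0.53 (adjusted p = 0.0262, limma). Of 41012 probes, 22463 to 28062 per array stood clear of background for p75High and 23042 to 26172 for p75Low. Over all genes tested the median ratio was -0.03 and the median SD per gene was 1.14. With 4 arrays, this spread limits the precision of every ratio given here.

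None of the 27 tested replication and mitosis genes passed the threshold in limma, against 166 of all 22191 genes (0.748%), of which 97 (0.437%) were lower and 69 (0.311%) higher in p75High. At an unadjusted p below 0.05, 5 of the 27 genes (18.5%) were lower in p75High, beside 6.92% of all genes, and 0 were higher, beside 5.82%. These 5 were Prc1, Kif2c, Kif11, Tk1 and Mcm2, with mean ratios between -3.03 and -1.49. Without replicate 2 the count was 2, while that over all genes, in either direction, also fell, from 2827 to 1883. The mean ratio was below 0 for 19 of the 27 genes (70.4%), beside 51.4% of all genes, and for 15 when arrays were centred on their medians instead of loess, which moved the median of all genes by 0.155. The median over the 27 was -0.33. A negative ratio on all 4 arrays was found for 7 of the 27 genes (25.9%), beside 13% of all genes, and a positive ratio on all 4 arrays for 1, Plk1, beside 12.5% of all genes. The other 19 genes had ratios of both signs.

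These counts cover only the genes that were bright enough in at least 1 population. At the brightest kept probe of each of the 27 tested genes, 20 entered through both channels and 2 (E2f1 and Cdk1) through p75High alone. The 5 genes whose brightest probe entered through p75Low alone were Prc1, Kif11, Ube2c, Rrm2 and Ccne1. Passing through 1 population alone by itself favours a ratio that leans that way. The other kept Rrm2 probe entered through p75High alone, well above background on 3 arrays there and on 2 in p75Low. The S-phase genes had a median ratio of -0.03 (range -2.34 to 0.90), with 7 of 11 below 0, and the mitotic genes had a median of -0.39 (range -3.03 to 0.91), with 12 of 16 below 0. The S-phase median had no settled side of 0, since it was 0.07 without replicate 2, -0.70 without replicate 1 and 0.041 with median centring (-0.087 relative to the median of all genes there). The mitotic median was below 0 under each of these settings.

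**Figure D1:**
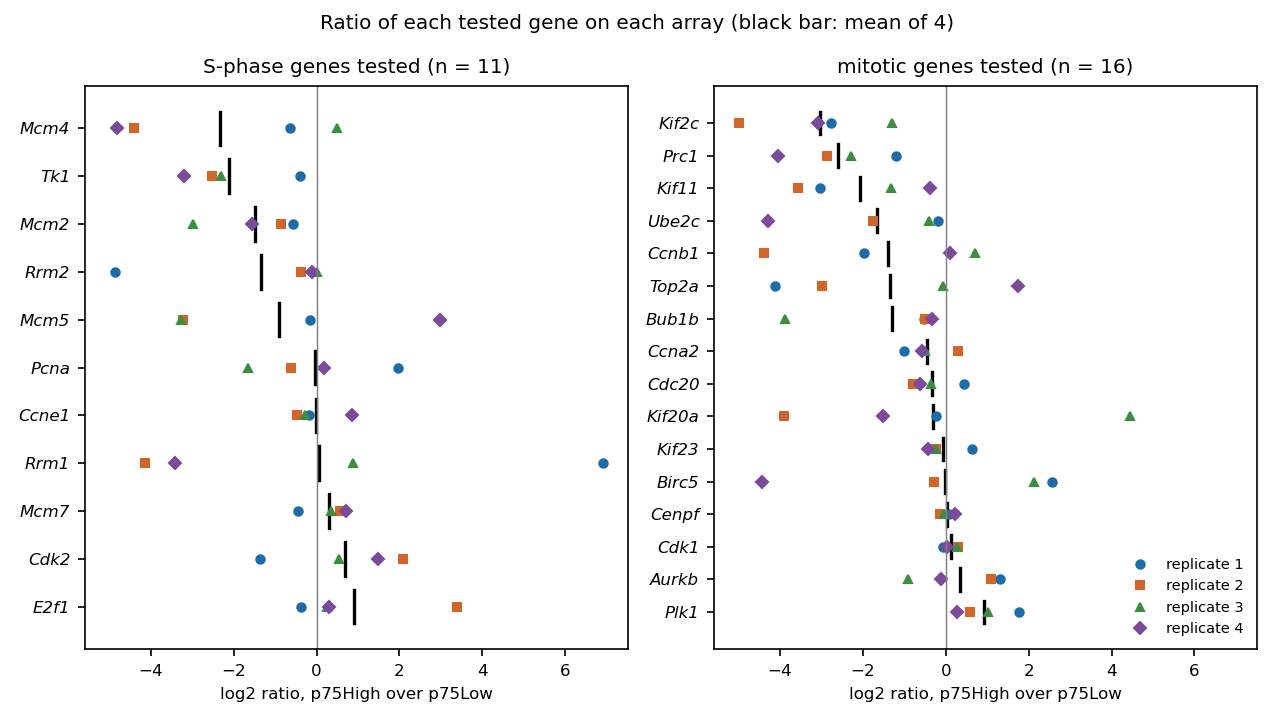
Log2 ratio of p75High over p75Low (horizontal axis) of each of the 11 S-phase and 16 mitotic genes tested (rows), with 1 point for each of the 4 arrays and a black bar at the mean. Kif2c, Prc1, Kif11, Ube2c, Bub1b, Tk1 and Mcm2 have all their points left of 0 and Plk1 has all of them right of 0, while the points of Rrm1, Kif20a and Birc5 lie far to both sides.

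Among the genes of the spindle motors, the spindle midzone and the chromosomal passenger complex, Kif2c, Prc1 and Kif11 had the lowest means of the mitotic genes and Kif20a, Kif23 and Birc5 had means near 0. All 6 genes of this group on the array were tested, and their median was -1.19. All 6 had a mean below 0, although Birc5 and Kif23 turned positive with the scanner software's own ratios and with median centring. With median centring Kif23 was 0.098, less than the shift of 0.155 in the median of all genes. Birc5 was also positive with no background correction, and Birc5, Kif23 and Kif20a were when some single replicates were left out. The mitotic genes with the 3 smallest p were in this group, but Prc1 and Kif11 passed the brightness filter through p75Low alone, which by itself favours a low ratio. The probes of these 3 genes are shown here, 5′ to 3′ as on the array, because the lowest mitotic ratios rest on them.
Prc1: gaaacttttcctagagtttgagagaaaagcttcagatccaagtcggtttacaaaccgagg
Kif2c: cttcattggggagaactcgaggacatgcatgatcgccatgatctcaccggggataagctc
Kif11: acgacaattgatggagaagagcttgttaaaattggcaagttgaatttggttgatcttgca
In the rn4 coordinates of the array file, the Prc1 probe spans chr1:136126012-136127612 on the plus strand, the Kif2c probe chr5:137478115-137480967 on the minus strand and the Kif11 probe chr1:241682887-241683187 on the plus strand. Each span is longer than the 60 bases of its probe.

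Prc1 bundles antiparallel microtubules at the spindle midzone, where cytokinesis is set up. Its ratios were -1.21, -2.86, -2.29 and -4.05 on replicates 1 to 4, a mean of -2.60 ± 1.18 (SE 0.54, adjusted p = 0.205, limma). On the log2 intensity scale after normalization, Prc1 read 6.16, 5.83, 6.99 and 8.51 in p75High, against 7.37, 8.69, 9.28 and 12.56 in p75Low. Every p75High sample was below the p75Low sample of its own array, but the highest p75High level, on replicate 4, was above the lowest p75Low level. The p75High signal was well above background on 2 arrays and the p75Low signal on 4.

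Kif2c, the kinesin-13 that takes microtubules apart at their ends and frees wrongly attached chromosomes, read -2.77, -5.00, -1.29 and -3.08, with a mean of -3.03 ± 1.52 (SE 0.67, adjusted p = 0.228, limma). This 8.18-fold lower value in p75High was the lowest mean among the 27 tested genes. Its levels were 6.47, 6.47, 6.27 and 9.66 in p75High, against 9.24, 11.46, 7.55 and 12.74 in p75Low, and both channels were well above background on all 4 arrays. The ranges overlapped only through replicate 4, whose p75High level lay above 2 of the p75Low levels. A second Kif2c probe was well above background on 1 array in each channel and was not tested. The array file places it on the plus strand, opposite to the tested probe, and whether both read the same message was not tested.

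Kif11, the kinesin-5 that pushes spindle poles apart, read -3.03, -3.56, -1.31 and -0.38, with a mean of -2.07 ± 1.48 (SE 0.65, adjusted p = 0.337, limma). Its levels were 6.29, 5.86, 6.06 and 6.20 in p75High, against 9.32, 9.42, 7.37 and 6.58 in p75Low, so the populations did not overlap. The probe was well above background on 1 array in p75High, and its levels there spread less than those in p75Low. A second Kif11 probe was well above background on 1 other array in p75High and on 2 arrays in p75Low, and was not tested. Kif23, the kinesin of the central spindle, averaged -0.06 ± 0.47. Kif20a, a kinesin of the late spindle midzone, read -0.24, -3.90, 4.44 and -1.52, and Birc5, the survivin subunit of the passenger complex, read 2.55, -0.29, 2.13 and -4.42, so both changed sign between arrays by several log2 units.

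**Figure D2:**
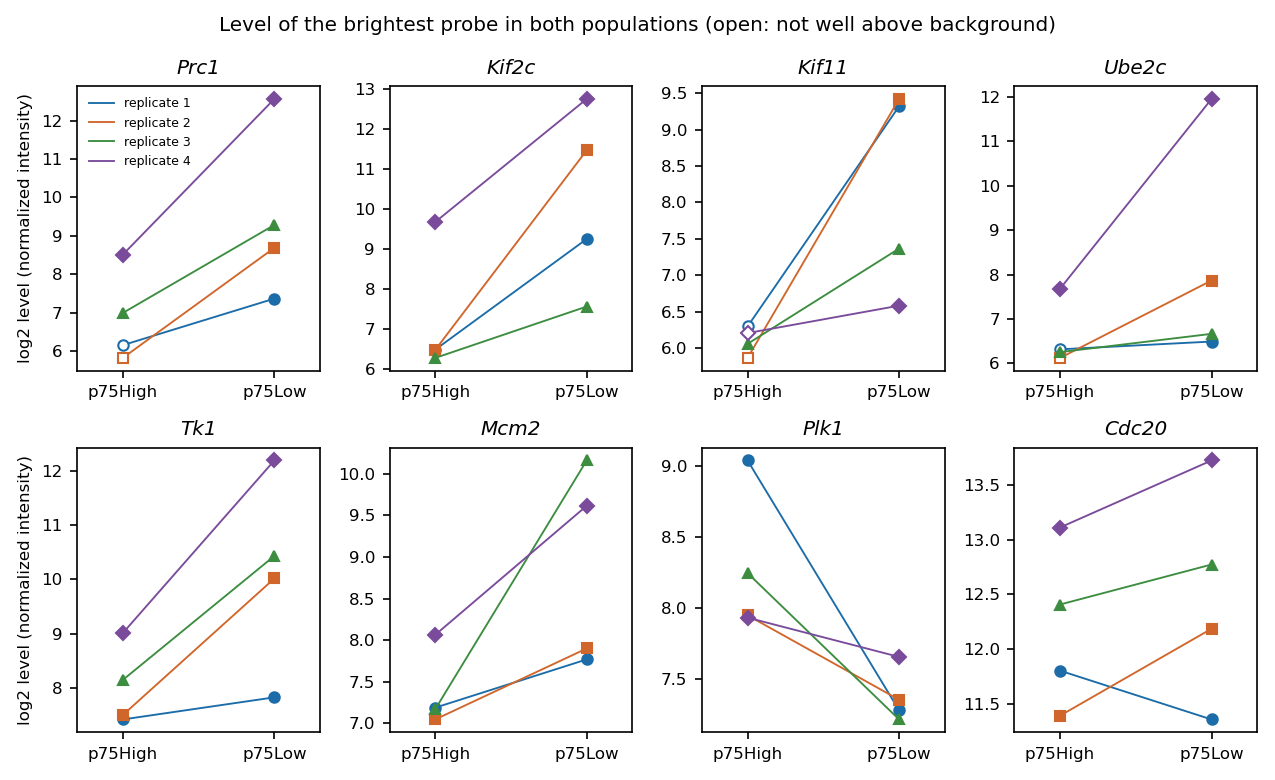
Log2 normalized intensity (vertical axis, scaled separately for each gene) of the brightest probe of 8 genes in p75High and p75Low, with a line joining the samples of each array and open markers where the signal was not well above background. All 4 lines run upward from p75High to p75Low for Prc1, Kif2c, Kif11, Ube2c, Tk1 and Mcm2 and downward for Plk1, and 3 of 4 run upward for Cdc20.

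The mitotic kinases did not share a direction. Plk1, a kinase needed at mitotic entry and for spindle assembly, read 1.76, 0.59, 1.03 and 0.28, with a mean of 0.91 ± 0.64 (SE 0.37, adjusted p = 0.406, limma). Its levels were 9.04, 7.95, 8.25 and 7.94 in p75High, against 7.28, 7.36, 7.22 and 7.66 in p75Low, without overlap. A second Plk1 probe that also passed the brightness filter read 0.11, -0.27, -0.32 and 0.34, a mean of -0.03, so the positive ratio on all 4 arrays was that of the brighter probe alone.

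Bub1b, a kinase-like protein of the spindle checkpoint, had a negative ratio on all 4 arrays, at -0.52, -0.50, -3.87 and -0.33 (mean -1.30 ± 1.71, adjusted p = 0.515, limma). Replicate 3 carried most of that mean. A second Bub1b probe read -0.14, -0.07, -3.43 and -1.50, again lowest on replicate 3. Aurkb, the kinase of the passenger complex, averaged 0.35 ± 1.05 and was positive on 2 arrays.

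Among the cyclins and Cdk1, the engine of mitotic entry, Ccnb1 averaged -1.39 ± 2.30, Ccna2 averaged -0.45 ± 0.55 and Cdk1 averaged 0.13 ± 0.18. Ccnb1, the main cyclin B, was carried by replicates 1 and 2, at -1.98 and -4.38, while replicates 3 and 4 read 0.71 and 0.09. Cdk1 differed little between the channels on any array (-0.06 to 0.30), and its probe was well above background on 3 arrays in p75High and on 1 in p75Low.

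The spindle checkpoint acts on Cdc20, the activator of the anaphase-promoting complex, and Ube2c is a ubiquitin-conjugating enzyme of that complex. Ube2c read -0.18, -1.75, -0.41 and -4.28, with a mean of -1.65 ± 1.88 (adjusted p = 0.469, limma). Its levels were 6.31, 6.12, 6.25 and 7.68 in p75High, against 6.49, 7.86, 6.66 and 11.96 in p75Low, and the populations overlapped through replicate 4. Cdc20 read 0.45, -0.80, -0.37 and -0.61, with a mean of -0.33 ± 0.55 (adjusted p = 0.691, limma). It was well above background in both channels of all 4 arrays, at 11.80, 11.39, 12.41 and 13.11 in p75High, against 11.36, 12.19, 12.77 and 13.73 in p75Low, so the array-to-array range within each population was wider than the difference between them. Cenpf, a kinetochore protein, had the smallest SD of the 27 genes, at 0.03 ± 0.15. Its probe was dim, at 6.33 to 6.62 in p75High and 6.35 to 6.53 in p75Low, where replicate 1 was not well above background. Whether the small SD reflects the dim signal was not tested. Top2a, the topoisomerase that untangles sister DNA, read -4.11, -2.99, -0.06 and 1.75, a mean of -1.35 ± 2.68 with both signs. A second Top2a probe read -2.56, -5.09, -1.49 and -0.16, negative on all 4 arrays (mean -2.33).

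In S phase, the helicase subunits held the lowest mean and also a positive one. Of 6 licensing and helicase genes on the array 4 were tested, with a median of -1.21 (range -2.34 to 0.29). Mcm4 read -0.63, -4.41, 0.50 and -4.83, a mean of -2.34 ± 2.67 (adjusted p = 0.460, limma), and Mcm2 read -0.58, -0.85, -2.99 and -1.55, a mean of -1.49 ± 1.08 (SE 0.51, adjusted p = 0.356, limma). The lowest arrays differed between these subunits of 1 helicase: replicates 2 and 4 for Mcm4, and replicate 3 for Mcm2. Replicate 4 was negative for both, at -4.83 for Mcm4 and -1.55 for Mcm2. Mcm5 averaged -0.92 ± 2.98 with readings of -3.23 and -3.26 on replicates 2 and 3 and 2.98 on replicate 4. Mcm7 averaged 0.29 ± 0.51.

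Mcm2 and Mcm4 each had 2 probes that passed the brightness filter, shown here because their readings differ. The brighter probe of each gene is given first.
Mcm2, brighter: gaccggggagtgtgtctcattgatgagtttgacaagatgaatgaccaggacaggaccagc
Mcm2, dimmer: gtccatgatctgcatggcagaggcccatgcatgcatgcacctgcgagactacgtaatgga
Mcm4, brighter: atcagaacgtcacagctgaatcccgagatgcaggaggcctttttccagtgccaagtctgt
Mcm4, dimmer: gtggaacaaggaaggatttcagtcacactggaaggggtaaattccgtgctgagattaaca
The Mcm2 probes lie at chr4:122981286-122981436 and chr4:122978797-122978856 (rn4, minus strand), and start at bases 1746 and 2312 of the transcript. The Mcm4 probes lie at chr11:87174959-87175018 and chr11:87178352-87178411 (rn4, plus strand), and start at bases 885 and 1474. The dimmer Mcm2 probe read 0.56, 0.54, -2.32 and -0.18, a mean of -0.35, so the 2 probes agreed in sign on 2 arrays and both were lowest on replicate 3. The levels of the brighter Mcm2 probe were 7.19, 7.05, 7.17 and 8.06 in p75High, against 7.77, 7.90, 10.16 and 9.61 in p75Low, and the populations overlapped through replicate 4. The dimmer Mcm4 probe read 0.12, -3.32, -1.29 and -3.29, a mean of -1.95, again lowest on replicates 2 and 4.

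For nucleotide supply and DNA synthesis, 4 of 6 genes on the array were tested, with a median of -0.68. Tk1, the thymidine kinase of S phase, read -0.41, -2.53, -2.30 and -3.20, with a mean of -2.11 ± 1.19 (SE 0.55, adjusted p = 0.292, limma), which is 4.31-fold lower in p75High. Its levels were 7.41, 7.49, 8.14 and 9.01 in p75High, against 7.82, 10.02, 10.44 and 12.20 in p75Low, well above background in both channels of all 4 arrays. The p75Low level was the higher one on each array, by least on replicate 1, and the ranges of the populations overlapped. The probe is shown because its place in the array file and the gene's place in the annotation differ.
Tk1: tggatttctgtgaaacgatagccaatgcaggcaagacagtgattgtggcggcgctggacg
The array file places it at chr3:109023260-109023319 (rn4, minus strand), whereas the RefSeq table of the GRCr8 assembly has Tk1 on chromosome 10. The gene name is that of the array file, and whether the probe reads Tk1 alone was not tested.

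Ribonucleotide reductase makes the deoxynucleotides for DNA synthesis, and its large subunit, Rrm1, gave opposite readings from probes of the same transcript. The 3 probes start at bases 470, 555 and 1704 of the transcript and lie at chr1:159935130-159936070, chr1:159936096-159937814 and chr1:159938904-159938963 (rn4, plus strand).
Rrm1, base 470: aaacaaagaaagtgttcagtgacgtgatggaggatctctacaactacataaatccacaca
Rrm1, base 555: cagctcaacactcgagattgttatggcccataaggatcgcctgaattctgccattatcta
Rrm1, base 1704: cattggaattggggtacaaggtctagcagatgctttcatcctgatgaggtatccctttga
The probe at base 470 was the brightest and read 6.91, -4.13, 0.88 and -3.42 on replicates 1 to 4, a mean of 0.06 ± 5.08 (adjusted p = 0.992, limma). The probe at base 555 read 4.05, -4.44, 1.35 and -4.57, with the same sign on every array. The probe at base 1704 read -4.56, 3.88, 1.81 and -0.44, so replicates 1 and 2 turned their sign between the neighbouring pair and the distant probe, by up to 11.48 log2 units. The near-zero mean of Rrm1 was thus the average of large readings of both signs. Rrm2, the small subunit, read -4.87, -0.38, 0.01 and -0.10 (mean -1.34 ± 2.36, adjusted p = 0.594, limma), and its other probe read -0.24, 0.20, 0.19 and -1.02, a mean of -0.22. Pcna, the sliding clamp of the DNA polymerases, averaged -0.03 ± 1.52 at its brightest probe and -1.25 at its other probe. That other Pcna probe read -0.77, -0.46, -3.51 and -0.26, so replicate 3 carried most of its mean. It passed the filter through p75Low alone, well above background on 3 arrays there and on 1 in p75High, which by itself favours a low ratio.

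**Figure D3:**
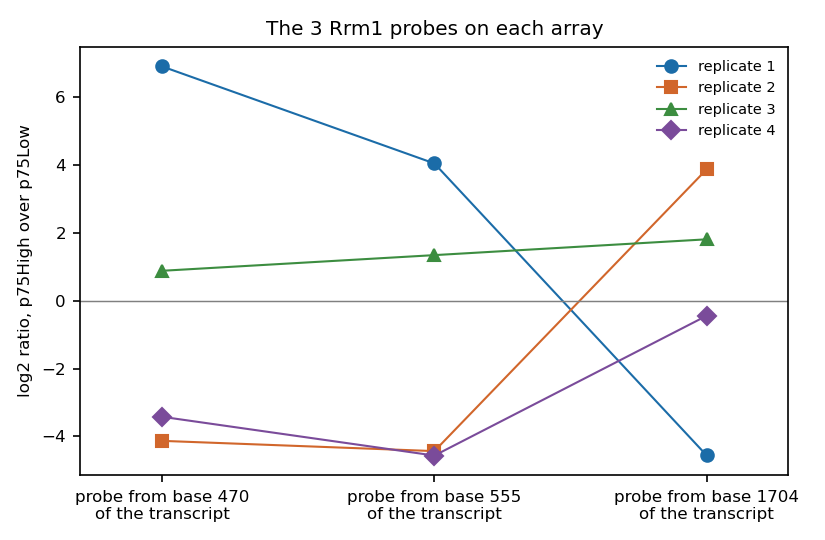
Log2 ratio of p75High over p75Low (vertical axis) at the 3 Rrm1 probes, ordered by where they start in the transcript (horizontal axis), with a line for each array. The probes from bases 470 and 555 lie on the same side of 0 on all 4 arrays, and replicates 1 and 2 cross 0 before the probe from base 1704.

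Over all 9 member genes with more than 1 tested probe there were 11 probe pairs, and 29 of their 44 readings (65.9%) had the same sign in both probes. Over all genes, 58.3% of readings of 3207 such pairs had the same sign. The median difference between 2 probes of a gene on 1 array was 1.35 for the members and 1.26 for all genes, on the log2 scale.

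Of 5 genes that drive or guard entry into S phase 3 were tested, with a median of 0.69, and none was positive on all 4 arrays. E2f1, a transcription factor of S-phase genes, averaged 0.90 ± 1.69, with 3.39 on replicate 2 and readings between -0.36 and 0.31 on the other arrays. Cdk2, the kinase partner of cyclin E, averaged 0.69 ± 1.51 and was positive on 3 arrays. The other Cdk2 probe read 0.00, 0.44, 2.63 and 0.39 and was not well above background in p75Low on any array. There p75High was at least 1.80-fold higher (levels of 7.19 in p75High and 6.32 in p75Low, adjusted p = 0.549 over all probes, limma), and at least 1.19-fold without replicate 3, which carried the difference. Ccne1, which encodes cyclin E1, averaged -0.02 ± 0.60.

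Detection of the 40 genes was compared without the brightness filter, by the scanner's flag for a spot well above background. On replicates 1 to 4, 22, 28, 30 and 26 of the 40 genes were above background in p75High, against 28, 31, 28 and 25 in p75Low. The means, 66.2% in p75High and 70% in p75Low, differed by less than the spread between arrays, and over all 35635 genes they were 63.6% in p75High and 61% in p75Low. By gene, 25 of the 40 were detected on the same number of arrays in both populations, 17 of them on 4 arrays in both. Another 6 were detected on more arrays in p75High and 9 on more arrays in p75Low, and no such count over all genes is given here. Among the 17 S-phase genes these counts were 3 for p75High and 4 for p75Low, and among the 23 mitotic genes 3 for p75High and 5 for p75Low.

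**Figure D4:**
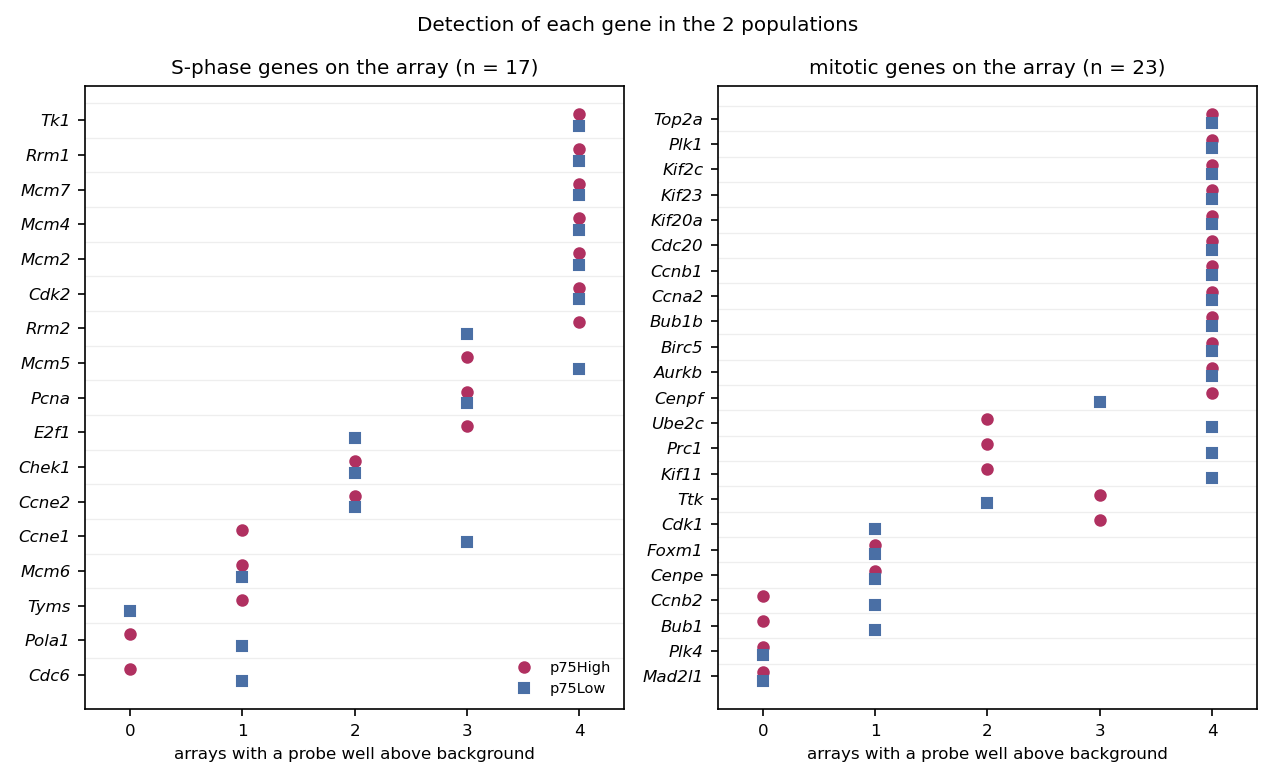
Number of arrays, from 0 to 4 (horizontal axis), on which each of the 17 S-phase and 23 mitotic genes on the array (rows) had a probe well above background, in p75High (circles) and p75Low (squares). Both symbols lie together for 25 genes, and Ube2c, Prc1 and Kif11 have 2 arrays in p75High and 4 in p75Low.

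The 13 genes that were on the array but not bright enough to be tested were Mcm6, Tyms, Pola1, Cdc6, Chek1 and Ccne2 in S phase, and Ccnb2, Bub1, Mad2l1, Plk4, Cenpe, Ttk and Foxm1 in mitosis. Mad2l1, a checkpoint protein, and Plk4, the kinase of centriole duplication, were above background on 0 arrays in both populations. Ttk, the checkpoint kinase, came nearest, with some probe above background on 3 arrays in p75High and 2 in p75Low. No ratio is given for these 13 genes, since a low signal does not show that a message is absent.

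The rule did not take 5 genes: Mcm3, Cdt1, Mki67, Aurka and Cenpa. A search by older names, made after the data were seen, found 3 of them. Cenpa, the histone of centromeres, was listed under a locus name and read -1.48, -0.76, -0.65 and -1.79 (mean -1.17 ± 0.55, adjusted p = 0.318, limma), negative on all 4 arrays. Cdt1, a licensing factor listed as Ris2, read -4.35, 0.41, -5.40 and -0.32 (mean -2.41 ± 2.89, adjusted p = 0.476, limma). Aurka, the kinase of the spindle poles, was listed as Stk6, and was above background on 2 arrays in each population and not tested. Mcm3 and Mki67 were not analysed here.

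The median over the S-phase genes was -0.41, -0.61, 0.01 and 0.17 on replicates 1 to 4, and over the mitotic genes -0.21, -0.65, -0.30 and -0.40. The mitotic median was negative on all 4 arrays and the S-phase median on 2. The mitotic median minus the S-phase median was 0.20, -0.03, -0.31 and -0.57, so the order of the 2 classes was not the same on every array.

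Of 96 other genes of the same processes, listed by function, 83 were on the array and 48 were tested, and 0 passed the threshold in limma. At an unadjusted p below 0.05, 6 of the 48 (12.5%) were lower in p75High, beside 6.92% of all genes, and 1 was higher. The mean was below 0 for 36 of 48 (75%), beside 51.4% of all genes, and the median was -0.66. The 24 S-phase genes of this wider list had a median of -0.47, with 1 (4.17%) lower at an unadjusted p below 0.05, and the 24 mitotic genes had a median of -0.91, with 5 (20.8%) lower. Among these mitotic genes, Smc2, Incenp, Kif4a, Wee1, Nusap1, Espl1 and Ncapd2 passed the filter through p75Low alone, and all had a negative mean. Cdc25b and Cdkn3 passed through p75High alone. Of the S-phase genes, Orc5 passed through p75Low alone, and Orc2, Orc6 and Gins4 through p75High alone. Such entry by itself favours a ratio that leans that way, so these counts and medians carry that lean. Rfc5, a subunit of the clamp loader, stood on the other side, at 1.75, 1.77, 2.66 and 2.81 (mean 2.25 ± 0.57, adjusted p = 0.112, limma).

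Cdc7, the kinase that fires licensed origins, read -1.19, -2.89, -1.58 and -2.33 (mean -2.00 ± 0.76, adjusted p = 0.192, limma). Pola2, the second subunit of DNA polymerase alpha, averaged -2.01 ± 1.86 (adjusted p = 0.401, limma). Smc4 and Smc2 are the condensin subunits that compact mitotic chromosomes. Smc4 read -3.31, -2.93, -0.58 and -2.32 (mean -2.28 ± 1.21, adjusted p = 0.261, limma). Smc2, which passed the filter through p75Low alone, read -4.13, -2.73, 0.04 and -5.06 and was not well above background in p75High on any array. Its p75Low level was at least 7.79-fold higher (levels of 6.28 in p75High and 9.25 in p75Low, adjusted p = 0.337, limma), at least 4.80-fold without replicate 4 and at least 15.6-fold without replicate 3, which showed no such difference. Hmgb2, a chromatin protein abundant in dividing cells, averaged -3.18 ± 2.69 (adjusted p = 0.366, limma).

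Markers of another cell type moved with the sort. Of 17 microglia and macrophage markers 16 were tested, all 16 had a mean below 0, 9 passed the threshold as lower in p75High, and their median was -4.57. On replicates 1 to 4 their median was -4.69, -5.33, -5.13 and -4.69. Their summed linear level was between 13420 and 20470 in p75High and between 324400 and 433600 in p75Low, and none was undetected in p75High. Of 14 glial markers, 11 had a mean above 0, with a median of 1.57 over the 14. Ngfr, which encodes the p75 used for the sort, passed as higher and Apoe as lower. At an unadjusted p below 0.05 in limma, 5 of the 14 were higher and 1 lower. The summed level of the 14 glial markers was nonetheless lower in p75High, between 41960 and 56770, against 60320 to 144400 in p75Low. Of 7 fibroblast markers tested 0 passed in limma, 2 being higher and 2 lower at an unadjusted p below 0.05. The median of the fibroblast markers was -0.89, but their summed level was between 59650 and 84700 in p75High and between 13260 and 34640 in p75Low. A sum is weighted to its brightest markers. The part of any of these cell types in the ratios of the replication and mitosis genes was not tested.

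**Figure D5:**
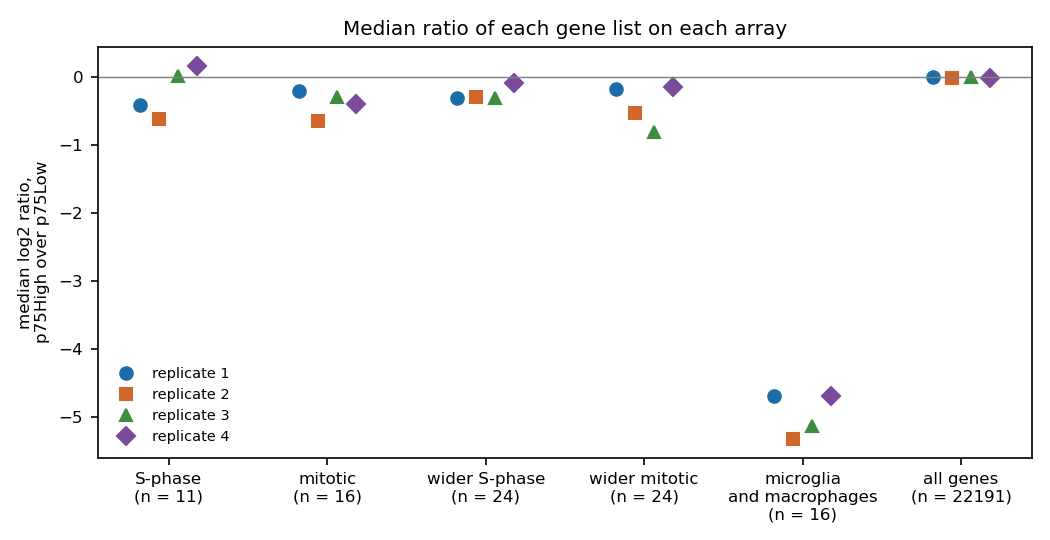
Median log2 ratio of p75High over p75Low (vertical axis) of each gene list on each of the 4 arrays (points), with the number of tested genes under each list. The replication and mitosis lists lie between -0.80 and 0.17, the microglia and macrophage markers lie between -5.33 and -4.69, and all genes lie at 0.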

How the data were processed

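Gene expression was measured on 4 two-colour Agilent arrays (design 014879, on 1 slide, per the file headers), each with a p75High sample in Cy5 and a p75Low sample in Cy3. The deposited intensity values are, per the file headers, mean spot and median background brightness in each channel, without normalization. Feature Extraction 10.5.1.1, per the file headers (Agilent Feature Extraction 10.5 in the submitters' processing notes), also gave log10 ratios of Cy5 over Cy3, which the authors deposited. Put on the log2 scale, they served as an alternative. The authors' value table held the same ratios, with a maximum difference of 0 and a median of 0 on each array. PCR amplification before labelling, per the labels' protocols, can distort ratios and was not undone here.

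In limma 3.58.1 (R 4.3.3), background was removed with normexp at an offset of 50, and each array was then normalized by loess with a span of 0.3. Control spots (1639 of 45018) had weight 0 and 1112 outlier readings (0.641%) were left out, and 0 gene spots were saturated. Probes were kept when 1 channel stood well above background on 3 or more of the 4 arrays (24872 of 41012 probes), and each gene was read from its brightest kept probe. Channel levels were taken after loess and Aquantile scaling, and levels of different probes are not comparable. A fold of at least N was taken against the lowest signal well above background on each array or the dim probe's own signal, whichever was higher. Names were updated through the RefSeq table of the GRCr8 assembly (11150 probes by accession, 5116 by symbol, 3422 by older symbol, 21324 unmatched), and coordinates are those of the array file, in build rn4. Probe sequences are those of the array file.

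The test was lmFit and eBayes on the log2 ratio against 0, two-sided, with Benjamini-Hochberg adjustment. The labels state paired samples, so the ratio is the paired difference. After removal of the population means, channels of the same array correlated at 0.122, 0.0687, 0.0629 and 0.265 on replicates 1 to 4 over 24756 probes, and the highest correlation with another array was 0.0492. The members and lists were chosen with earlier results of these data known, so no p is adjusted over a list and lists are described by counts and medians. Values on every array were given for genes whose 4 arrays shared a sign and for the 4 smallest p among S-phase and among mitotic genes. The wider list gave its 3 smallest p among S-phase and among mitotic genes. Readings per array of the other genes were shown where replicates or probes disagreed, chosen after the values were seen. Alternatives covered the background correction, the normalization, the filter, outliers, the choice of probe, the pairing, older gene names and leaving out each replicate.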

Additional observations from a re-analysis of the deposited data

Results flagged for a closer look

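Of 42 sets of 4 array values that were checked for 1 value far from the others, 3 were picked out, and chance alone picks out about 1 in 20. The ratio of Bub1b was -3.87 on replicate 3 and between -0.52 and -0.33 on the other arrays. The ratio of Rrm2 was -4.87 on replicate 1 and between -0.38 and 0.01 on the other arrays. The median of the wider S-phase list was -0.088 on replicate 4 and between -0.31 and -0.29 on the other arrays.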

How the results depend on the processing

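The count of replication and mitosis genes past the threshold was 0 under every alternative run, and so was that of the wider list. The smallest adjusted p of a member was 0.0697, for Prc1 with the scanner's own ratios (limma). The number of all genes past the threshold was 166 as reported, 267 with the scanner's ratios (113 higher and 154 lower), 89 with no brightness filter and 316 with no replicate block, which ignores the pairing. It was 0 whenever any 1 replicate was left out, with 1883 to 2376 genes at an unadjusted p below 0.05. The mitotic median stayed negative, at -0.18 with median centring in place of loess, where it was -0.31 relative to the shifted median of all genes, and from -0.58 to -0.29 when 1 replicate was left out. The S-phase median was -0.72 with a stricter filter, -0.64 with the median over a gene's probes and -0.48 with members under older names added, an alternative chosen after the data were seen. It ran from -0.70 without replicate 1 to 0.068 without replicate 2. The number of members with a mean below 0 was 19 as reported, 18 with no background correction, 17 with the scanner's ratios and 15 with median centring.

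Means near 0 changed sign. With no background correction Birc5 was 0.19, Cenpf -0.073 and Pcna 0.083. With the scanner's ratios Birc5 was 0.35, Cenpf -0.064, Kif23 0.040 and Pcna 0.40. With median centring Birc5 was 0.21, Ccne1 0.041, Kif23 0.098 and Pcna 0.23, but this setting raised the median of all genes by 0.155, more than the values of Ccne1 and Kif23. Rrm1 was -0.54 with the median over its probes. With 1 replicate left out, Birc5 ran from -0.86 to 1.46, Ccne1 from -0.31 to 0.13, Cenpf from -0.034 to 0.084, Kif20a from -1.89 to 0.89, Kif23 from -0.29 to 0.058, Pcna from -0.70 to 0.50 and Rrm1 from -2.22 to 1.46. These were 25 checks of named genes, and in the other 391 the sign and the side of the threshold held. The cause of these changes was not tested. Dim signals limit 7 tested members whose brightest probe passed the filter through 1 channel, and 13 members were too dim to test.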
